A study of Mus musculus with 12 samples.

Results

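Bone marrow cells of Hopx-knockout (Hopx-/-) mice were compared with those of Hopx-wildtype mice, neither carrying MN1 overexpression, across all measured genes. The comparison held 6 of the 12 RNA-sequencing libraries of the series, chosen by their labels: wild-type replicates 1, 6 and 7 and knockout replicates 3, 9 and 10, numbered as in the sample titles. All 6 came from C57BL/6 mice labelled aged, with a stated age of 18 weeks. The other 6 libraries, 3 Hopx-wildtype and 3 Hopx-knockout with MN1 overexpression and a stated age of 16 weeks, were used only where a difference between the knockout effects of the experiments was tested. The labels give no sex, do not say whether the deletion was germline or conditional, which part of the gene it removed or whether the cells were sorted, and do not state that each library came from its own mouse, so p-values measure the spread between these samples, which may be technical.

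Hopx encodes a small homeodomain protein that has lost the ability to bind DNA and acts through other proteins. In heart it is known to hold back serum response factor (SRF), the regulator of cytoskeletal and immediate early genes, together with the histone deacetylase Hdac2, and to join Smad proteins in restraining Wnt signalling. Bone marrow is a mixture of maturing neutrophils, monocytes, red cell precursors, developing B cells and smaller populations, with the stem cells that feed them, so a change in the level of an RNA can reflect either the number of cells that hold it or its amount per cell. In these bulk samples fewer cells of a type and less RNA per cell cannot be told apart.

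Hopx was read in each wild-type library and in 1 knockout library. It had 264, 723 and 301 counts in wild-type replicates 1, 6 and 7, and 0, 0 and 2 counts in knockout replicates 3, 9 and 10. Wild-type replicate 6 was the highest and the groups did not overlap. Scaled to library totals with TMM factors, the wild-type counts were 595 times the knockout counts (exact 95% interval 164 to 4922, counting error only). Per length, in the authors' TPM, Hopx averaged 27.9 in wild type, of the same order as the stem and progenitor receptor gene Kit at 17.2 and the erythroid factor gene Gata1 at 33.8. The gene lies at chr5:77086986-77115123 (GRCm38.p6, RefSeq annotation, minus strand). It is overlapped by the antisense gene Hopxos, and whether strand was used in counting is not given in the sources used here.

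The 6 libraries held 16544407 to 28409046 counts. Values below are CPM (counts scaled to library totals with TMM factors), which ran from 0.885 to 1.09, and triplets are in the order wild-type replicates 1, 6 and 7 or knockout replicates 3, 9 and 10. A value after ± is the standard error of a log2 fold change (knockout over wild type). The root mean square difference of log2 CPM was 0.335 to 0.460 between wild-type libraries, 0.412 to 0.510 between knockout libraries and 0.702 to 0.976 between groups. The first principal component held 70.5% of the variance and the next 11.4%. Knockout replicate 10 stood furthest from its group on the low side, with 233 genes at least 2-fold below both other knockout libraries, knockout replicate 3 stood out on the high side with 129 genes at least 2-fold above both, and wild-type replicate 7 had 110 such genes above the other wild-type libraries. The labelled tissue was checked against its markers: the neutrophil genes Ltf and Ngp stood at 8184 to 14103 and 12455 to 19238 CPM without TMM scaling, and the skeletal muscle gene Acta1 and the adipocyte gene Plin1 stayed at or below 0.152 and 0.0465 CPM. The other muscle and adipocyte markers were higher, with Ckm up to 0.659 CPM and Adipoq up to 5.44 CPM. Y-linked genes, also without TMM scaling, summed to at most 0.152 CPM in each of the 6 libraries, so none showed expression of a male sample.

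Of 12771 genes tested, 4008 passed an adjusted p of 0.05 in edgeR's quasi-likelihood test, which was 31.4% of the genes. The calls were near evenly split: 1987 genes rose (15.6%) and 2021 fell (15.8%). Their sizes were not evenly split, since 377 genes fell at least 4-fold (2.95% of the genes tested) and 39 rose at least 4-fold (0.305%). Without a model, every knockout library lay above every wild-type library for 2983 genes (23.4%) and below for 3197 (25.0%). The median log2 fold change of all genes was -0.024. Scaling by library totals alone moved that median by -0.18 to -0.20, with 1046 genes called as risen and 3381 as fallen, so 23.6% of the calls were rises against 49.6% with TMM factors. Leaving out 1 library gave 2402 calls without wild-type replicate 7, 2560 without wild-type replicate 6 and 2780 to 4599 without one of the others, and 2022 genes (990 risen, 1032 fallen) kept their call and direction in each of these 6 fits. With the spread set by all 12 libraries, MN1 libraries included, 818 genes were called, 236 as risen and 582 as fallen.

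The direction of the change went with the level of the gene. Among the quartile of genes with the lowest mean level 27.7% fell and 4.79% rose, whereas among the quartile with the highest level 6.17% fell and 33.1% rose. The quartiles between lay in order, with 19.1 and 10.3% that fell and 7.86 and 16.4% that rose. Among genes that changed at least 2-fold, 759 of the lowest quartile fell and 109 rose, against 41 and 83 of the highest quartile.

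**Figure D1:**
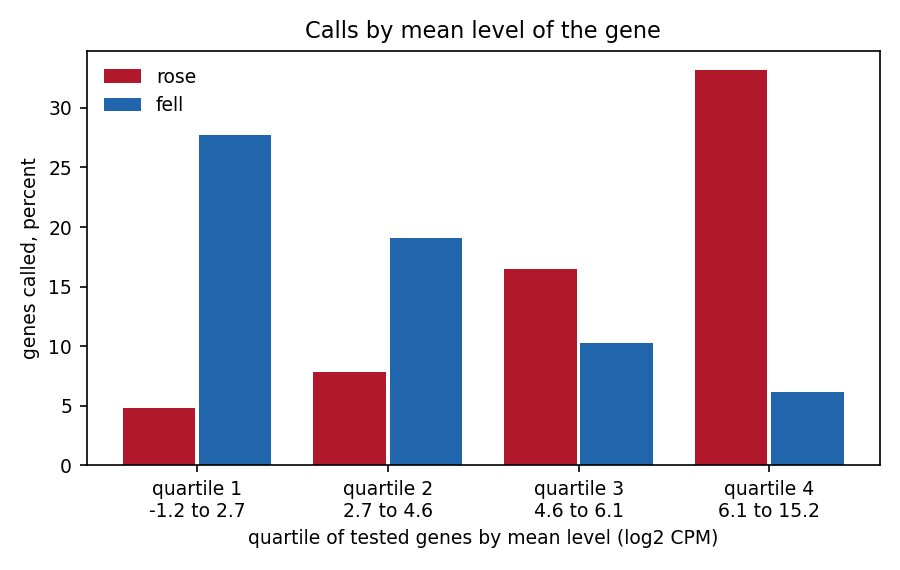
Share of tested genes (y axis, percent) that rose (red) or fell (blue) in the knockout, by quartile of mean level in log2 CPM (x axis). Falls go from 27.7% in the lowest quartile to 6.17% in the highest, and rises from 4.79% to 33.1%.

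Gene lists covering the cell types of marrow and general cell functions were read against these shares. In the plot of list members called, lymphocyte, dendritic, antigen presentation and platelet lists lie to the left and neutrophil granule, acute phase and glycolysis lists to the right. There were 62 lists, of which 60 had at least 3 tested members, and in 29 of these at least 50% of the tested members passed in 1 direction. The counts of 5 or more called members, 50 over all lists, depended on how the spread was set: with all 12 libraries setting it, 43 were lower by more than 1.5 times. Under that setting 18 of 20 T cell receptor complex genes, 12 of 23 B cell surface genes and 11 of 15 MHC class II genes fell. Other falls were fewer, with 6 of 22 megakaryocyte and platelet genes and 4 of 14 erythroid factor and progenitor genes. Of regulatory T and helper genes 2 of 12 fell. Counts of falls became 0 of 19 for globin and red cell membrane genes, 0 of 13 for haem synthesis genes and 0 of 12 for eosinophil genes. The rises became 1 of 20 for secondary granule genes, 3 of 32 for mature neutrophil genes, 8 of 24 for acute phase genes and 4 of 30 for glycolysis genes.

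**Figure D2:**
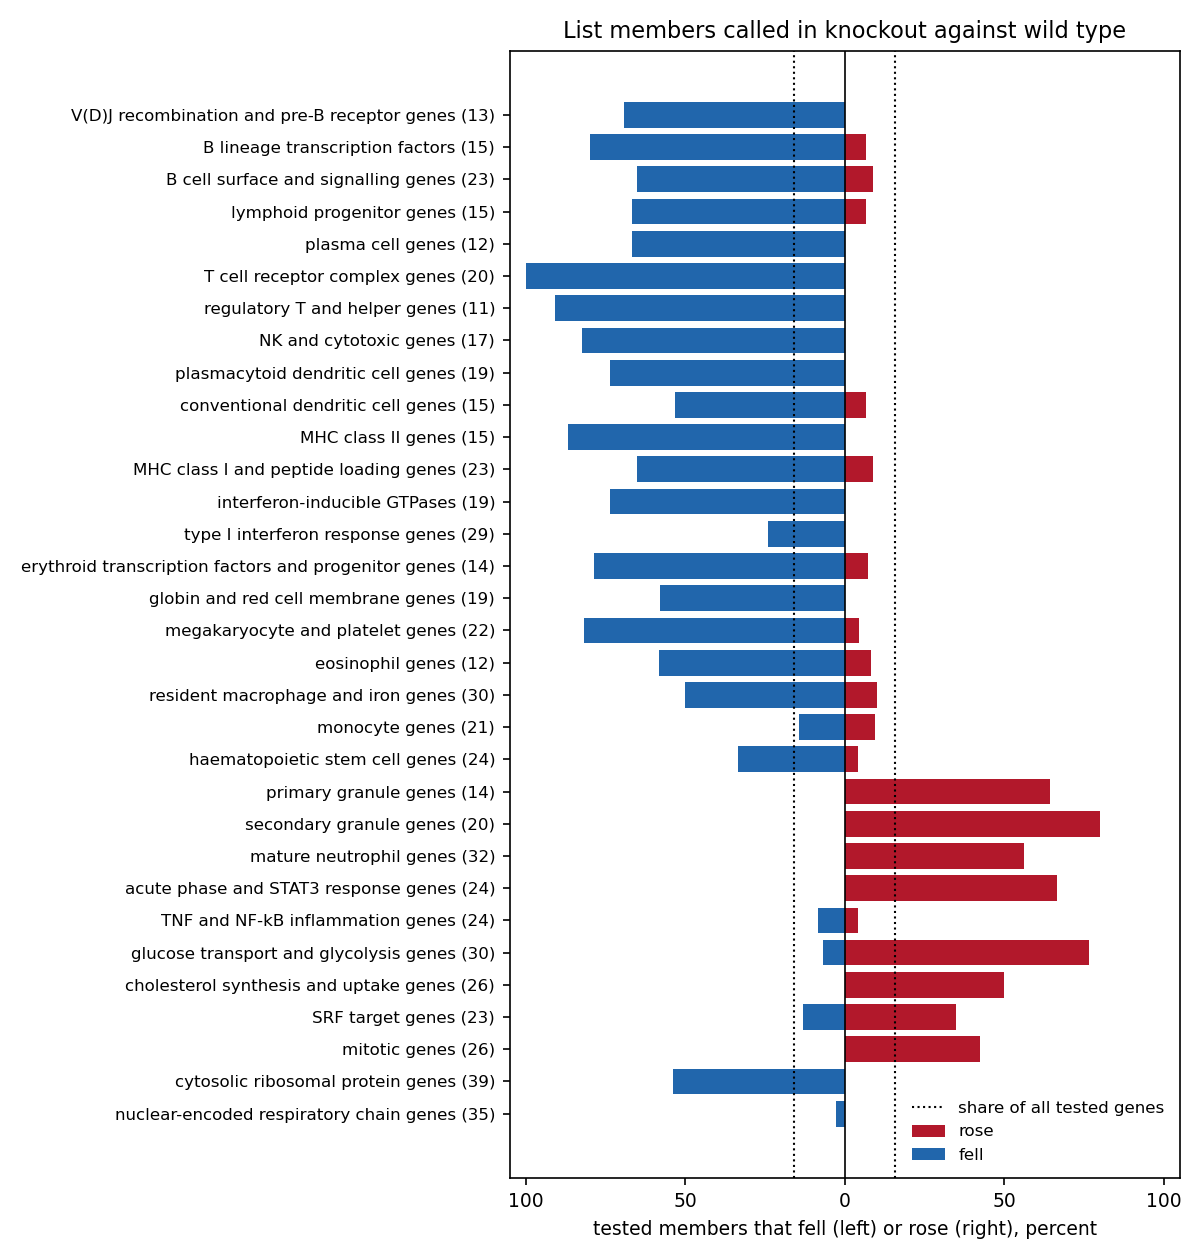
Percent of the tested members of each list (number of members in brackets) that fell (blue bars, left) or rose (red bars, right) in knockout against wild type, with dotted lines at the shares of all tested genes, 15.8% and 15.6%. T cell receptor complex genes reach 100% on the left, and secondary granule and glycolysis genes extend furthest on the right.

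Genes of B cell development fell at each stage the lists covered. Of 13 tested genes of V(D)J recombination and the pre-B receptor 9 fell and 0 rose, with a median log2 fold change of -3.32. Rag1, a subunit of the recombinase that cuts antigen receptor genes, stood at 55, 49.7 and 63.8 CPM in wild type and 0.166, 0.994 and 0 CPM in the knockout. Its partner Rag2 stood at 6.91, 3.51 and 5.28 CPM in wild type and 0.277, 0.0398 and 0 CPM in the knockout. Rag1 was even across the wild-type libraries and Rag2 lowest in replicate 6, and both were near 0 in the knockout, with no overlap (-6.91 and -5.59 on the log2 scale, adjusted p = 0.000856 and 0.000711). The surrogate light chain genes gave the same picture, with Vpreb1 at 14, 7.19 and 10.2 CPM in wild type and 0, 0.477 and 0.256 CPM in the knockout (log2 fold change -5.26 ± 0.56, adjusted p = 0.00086). Igll1 stood at 16.1, 8.37 and 11.4 CPM in wild type and 0.166, 0.437 and 0.32 CPM in the knockout (log2 fold change -5.2 ± 0.37, adjusted p = 0.000144). Vpreb3, an assembly factor of the pre-B receptor, was at 26.3, 19.9 and 35.7 CPM in wild type and 0.388, 0.437 and 1.41 CPM in the knockout, and its log2 fold change was -5.28 ± 0.43. Dntt, which adds bases at the recombined joints, went from 35.2, 25.4 and 27.1 to 5.98, 7.0 and 3.2 CPM (log2 fold change -2.42 ± 0.26, adjusted p = 0.000789). The general repair genes of the same list did not pass: Lig4 (-0.57), Xrcc4 (0.09) and Dclre1c (0.15).

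The transcription factors that set up and hold B cell identity fell with them, 12 of 15 tested (median -2.54). Ebf1 stood at 20.6, 18.4 and 35.6 CPM in wild type and 0.221, 0.795 and 0.384 CPM in the knockout, and its log2 fold change was -5.62 ± 0.43. Pax5, the B cell commitment factor, stood at 8.81, 11.2 and 21.5 CPM in wild type and 0.0554, 0.517 and 0.256 CPM in the knockout (-5.5 ± 0.57). Wild-type replicate 7 was the highest for both, and neither gene's groups overlapped. Bach2, Lef1 and Pou2af1, which act at the pre-B and later stages, fell, with log2 fold changes of -3.98, -3.97 and -3.08, and Irf4, Id3 and Foxo1 fell, with log2 fold changes of -2.78, -2.54 and -1.93. Pou2f2 (-0.31, adjusted p = 0.534) and Klf2 (0.57, adjusted p = 0.395) did not pass, and Arid3a rose (log2 fold change 0.72 ± 0.14, adjusted p = 0.00547). Among genes of the lymphoid progenitors that come before, 10 of 15 fell and 1 rose. Il7r, the interleukin-7 receptor chain on which B cell precursors depend, went from 39.4, 28.8 and 46 to 11, 8.87 and 5.51 CPM (log2 fold change -2.16 ± 0.26, adjusted p = 0.00126), and the progenitor surface gene Ly6d from 123, 132 and 158 to 8.42, 14.8 and 10.1 CPM (log2 fold change -3.62 ± 0.21, adjusted p = 0.000121). Cd93, Kit, Satb1 and Ikzf1 did not pass, with log2 fold changes of 0.08 to 0.31, and Notch1 rose (log2 fold change 0.63 ± 0.13, adjusted p = 0.00778).

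Genes of mature B cells fell too. Of 23 tested surface and signalling genes 15 fell, 2 rose and 6 did not pass. Ms4a1, which encodes CD20, stood at 53.2, 58.2 and 113 CPM in wild type and 1.61, 3.82 and 2.82 CPM in the knockout (log2 fold change -4.73 ± 0.44, adjusted p = 0.00124). Cd79a, a signalling chain of the B cell receptor, stood at 92.1, 121 and 259 CPM in wild type and 4.76, 11 and 10.8 CPM in the knockout (log2 fold change -4.15 ± 0.56, adjusted p = 0.00514). Wild-type replicate 7 was the highest and replicate 1 the lowest for both, with each knockout library below. The gap within wild type was wide for genes of recirculating B cells: Fcer2a, the low-affinity IgE receptor, stood at 3.97, 12.7 and 28.6 CPM in wild type and 0.388, 0.875 and 0.448 CPM in the knockout, and Ccr7, the homing receptor for lymph nodes, at 4.23, 6.44 and 18.3 CPM in wild type and 0.277, 0.756 and 0.704 CPM in the knockout. Their log2 fold changes were -4.64 ± 0.89 and -4.02 ± 0.70, and the call was lost for Fcer2a without knockout replicate 10 (adjusted p = 0.0687). Blk, Cd22, Cxcr5 and Tnfrsf13c, the receptor for the survival factor BAFF, fell, with log2 fold changes of -4.34, -3.87, -3.72 and -3.74.

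Several genes that B cells share with other blood cells did not move with these. Syk (0.02), Btk (0.13), Cd37 (0.20) and Cd24a (0.00) did not pass. Cd38 stood at 20.1, 24.6 and 43 CPM in wild type and 49.9, 47.6 and 57.7 CPM in the knockout (log2 fold change 0.82 ± 0.26, adjusted p = 0.0482). Plcg2 stood at 262, 283 and 259 CPM in wild type and 352, 389 and 304 CPM in the knockout (log2 fold change 0.38 ± 0.12, adjusted p = 0.0385), both called as risen. These calls were lost for Cd38 without wild-type replicates 1 or 6 or knockout replicates 3, 9 or 10 (adjusted p = 0.0737 to 0.154) and for Plcg2 without wild-type replicates 1, 6 or 7 or knockout replicates 3 or 9 (adjusted p = 0.0849 to 0.114). Tnfrsf13b (-0.25, adjusted p = 0.335) and Cd180 (-0.78, adjusted p = 0.0872) did not pass either.

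**Figure D3:**
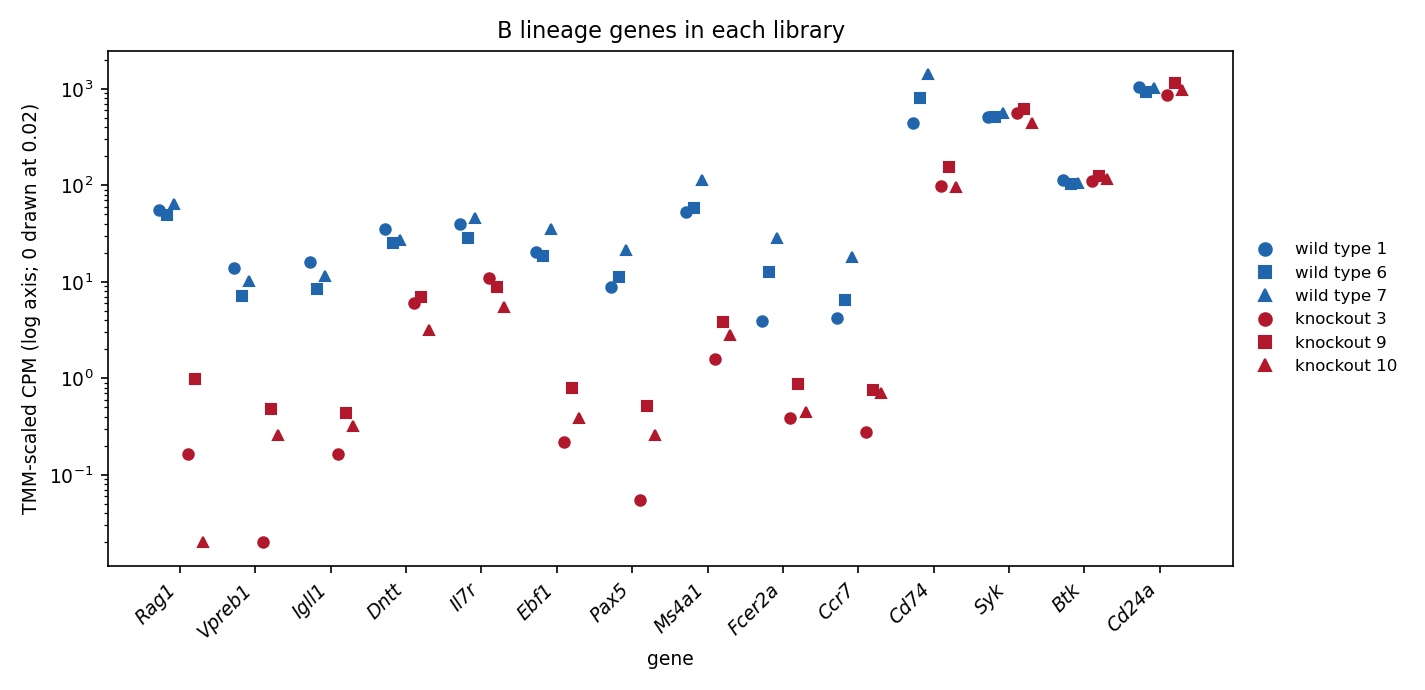
TMM-scaled CPM (log axis, values of 0 drawn at 0.02) of B lineage genes in each library, wild type in blue and knockout in red, with a symbol per replicate. Knockout points lie below the wild-type points from Rag1 to Cd74, and the groups overlap for Syk, Btk and Cd24a.

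Genes of antibody-secreting cells went in the same direction. Of 12 plasma cell genes 8 fell and 0 rose (median -1.24). Sdc1, the plasma cell surface proteoglycan, stood at 33.3, 49.6 and 33.1 CPM in wild type and 4.76, 8.15 and 7.17 CPM in the knockout (log2 fold change -2.52 ± 0.23, adjusted p = 0.000441), without overlap. Prdm1, the factor that drives plasma cell formation, fell by 1.66 on the log2 scale. Jchain, which joins IgM and IgA chains, went from 739, 886 and 1228 to 136, 377 and 270.0 CPM (log2 fold change -1.87 ± 0.38, adjusted p = 0.0129), and the call was lost for Jchain without knockout replicate 10 (adjusted p = 0.0583). Xbp1, a secretory factor that other cells of the marrow also use, did not pass (-0.02, adjusted p = 0.945).

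All 20 tested genes of the T cell receptor complex and its signalling fell, with log2 fold changes from -2.73 to -0.65 and a median of -1.79. Cd3g stood at 14.2, 12.5 and 18.7 CPM in wild type and 2.38, 4.33 and 2.62 CPM in the knockout (log2 fold change -2.26 ± 0.25, adjusted p = 0.000772). Lck, the kinase that starts receptor signalling, stood at 19.4, 19.3 and 32 CPM in wild type and 5.92, 8.15 and 4.67 CPM in the knockout (log2 fold change -1.9 ± 0.26, adjusted p = 0.00188). Levels of the co-receptors went the same way, with Cd4 at 16.5, 16.8 and 21.8 CPM in wild type and 5.81, 5.97 and 2.56 CPM in the knockout (-1.92) and Cd8b1 at 5.98, 3.72 and 7.62 CPM in wild type and 0.886, 0.994 and 1.09 CPM in the knockout (-2.54). The groups overlapped for none of the 20 genes, and leaving out 1 library left 17 to 20 of them called. Of 11 genes of regulatory and helper T cells 10 fell, led by Il2ra, the high-affinity interleukin-2 receptor chain (log2 fold change -3.15 ± 0.39, adjusted p = 0.000918), a count that became 5 without knockout replicates 9 or 10 and 6 without wild-type replicate 7. Of 17 NK and cytotoxic genes 14 fell, among them Klrd1 (-2.0), Eomes (-1.88), Klra8 (-2.26) and Ccl5 (-1.73). Nkg7 (0.52, adjusted p = 0.168) and Gzmb (-0.42, adjusted p = 0.373) did not pass.

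In both dendritic cell branches more genes fell than rose. Of 19 genes of plasmacytoid dendritic cells, the main producers of type I interferon, 14 fell and 0 rose (median -2.04). Siglech stood at 75.4, 67.6 and 85.6 CPM in wild type and 16.2, 24.2 and 6.47 CPM in the knockout (log2 fold change -2.26 ± 0.44, adjusted p = 0.0133), Ccr9 at 24.8, 21.4 and 22.4 CPM in wild type and 5.15, 8.15 and 2.43 CPM in the knockout (log2 fold change -2.09 ± 0.35, adjusted p = 0.00475). Irf8, the transcription factor shared with monocytes and B cells, stood at 254, 246 and 288 CPM in wild type and 104, 114 and 74.8 CPM in the knockout (log2 fold change -1.43 ± 0.16, adjusted p = 0.000677). Knockout replicate 10 was the lowest for these 3, and no knockout library reached a wild-type level. Spib, Ly6d, Mzb1, Tcf4 and Irf8 are also B lineage or progenitor genes, and leaving them aside the remaining members that fell included Cox6a2 (-2.47), Bst2 (-1.51) and Cd209d (-3.29). Tlr7 (-0.02), Irf7 (-0.77) and Runx2 (-0.13) did not pass. Of 15 genes of conventional dendritic cells 8 fell, 1 rose and 6 did not pass (median -0.87). Summed over this list, the levels averaged 936 CPM in wild type and 805 CPM in the knockout. With the spread set by all 12 libraries 5 of 16 fell. Clec9a and Zbtb46 fell, with log2 fold changes of -1.84 and -1.57, and Kmo, Dpp4 and Clec10a fell, with log2 fold changes of -1.83, -1.94 and -1.39.

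MHC class II genes, which present antigen on B cells, dendritic cells and macrophages, fell as a block. Of 15 tested genes 13 fell and 0 rose, with a median of -2.48. The promoters of 4 members are shown because class II genes share a regulatory region ahead of the start site, whose letters ATTGG, the binding site of NF-Y, are in capitals. Each line gives up to 120 bases before the start site, 5′ to 3′ on the strand of the gene, from RefSeq promoters of GRCm38.p6: H2-Aa (chr17:34287824-34287943, minus strand), H2-Eb1 (chr17:34305747-34305866, plus strand), H2-Oa (chr17:34092259-34092378, plus strand) and H2-DMb1 (chr17:34153071-34153190, plus strand).
H2-Aa: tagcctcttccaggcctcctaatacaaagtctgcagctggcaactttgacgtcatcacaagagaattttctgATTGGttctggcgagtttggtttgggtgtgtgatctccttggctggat
H2-Eb1: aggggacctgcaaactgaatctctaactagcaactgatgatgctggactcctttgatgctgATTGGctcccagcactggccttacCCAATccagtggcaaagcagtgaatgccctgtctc
H2-Oa: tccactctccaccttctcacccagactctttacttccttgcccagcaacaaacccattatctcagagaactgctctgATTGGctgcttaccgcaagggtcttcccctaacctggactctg
H2-DMb1: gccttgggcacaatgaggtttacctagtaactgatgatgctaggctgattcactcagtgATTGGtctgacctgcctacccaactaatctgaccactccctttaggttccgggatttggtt
The match begins 48, 59, 43 and 61 bases before the start site, and H2-Eb1 has another on the opposite strand at 35 bases. Over windows of 250 bases before to 50 after the start, with ATTGG searched on both strands and no requirement for the neighbouring boxes, 10 of 11 class II promoters in the table held it (90.9%), against 37.4% of all 32851 promoters and 37.8% of those of tested genes. Among promoters of genes that fell at least 4-fold it was in 135 of 354 (38.1%), and of genes that rose at least 4-fold in 18 of 42 (42.9%). A match describes letters only.

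The class II levels themselves were uneven in wild type. H2-Aa stood at 151, 219.9 and 563 CPM in wild type and 36.9, 57.5 and 33.7 CPM in the knockout (log2 fold change -2.86 ± 0.58, adjusted p = 0.0165). Cd74, the invariant chain, stood at 444, 801 and 1424 CPM in wild type and 99.1, 157 and 96.1 CPM in the knockout (log2 fold change -2.92 ± 0.47, adjusted p = 0.0067). Wild-type replicate 7 was the highest, and every knockout library lay below every wild-type library for 13 of the 15 genes. Summed over the list, the levels were 1025, 1619 and 3299 CPM in wild type and 310.0, 436 and 291 CPM in the knockout. Ciita, the coactivator that class II genes require, stood at 14.9, 22.7 and 45.7 CPM in wild type and 5.26, 6.52 and 3.9 CPM in the knockout (log2 fold change -2.39 ± 0.45, adjusted p = 0.0105), whereas its DNA-bound partners Rfxap (-0.17) and Rfxank (-0.06) did not pass. The peptide-loading genes H2-DMa and H2-DMb1 fell, with log2 fold changes of -1.22 and -1.29. The count of 13 became 5 without knockout replicate 10 and 7 without knockout replicate 3, and the call was lost for H2-Aa without knockout replicates 3 or 10 (adjusted p = 0.0532 to 0.0729) and for Ciita without knockout replicate 10 (adjusted p = 0.0538). The B cell marker Cd79a and the dendritic gene Siglech moved with this list, and their part in the class II levels was not tested.

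MHC class I, carried by nearly all cells, also fell. Of 23 tested genes of class I and peptide loading 15 fell and 2 rose (median -0.54). B2m, the common light chain, stood at 2219.8, 1648 and 1528 CPM in wild type and 1119.7, 1199 and 918 CPM in the knockout (log2 fold change -0.74 ± 0.18, adjusted p = 0.0131). H2-Q7, H2-Q4 and H2-T22, non-classical heavy chains, fell, with log2 fold changes of -2.04, -1.24 and -1.17, and reads can be shared among these near-identical genes, so the split between them is uncertain. The transporter gene Tap1 fell (log2 fold change -0.74 ± 0.15, adjusted p = 0.00686) and its partner Tap2 did not pass (-0.02, adjusted p = 0.904). The immunoproteasome subunits Psmb8 (-0.58) and Psmb10 (-0.65) fell. The class I coactivator Nlrc5 stood at 75.8, 48.9 and 54.4 CPM in wild type and 38.3, 28.9 and 22.4 CPM in the knockout (log2 fold change -1.0 ± 0.22, adjusted p = 0.0131), and the call was lost for Nlrc5 without knockout replicate 9 (adjusted p = 0.0522). Of the general chaperones in the same list, Pdia3 was called as risen (log2 fold change 0.38 ± 0.11, adjusted p = 0.0319), a call lost for Pdia3 without wild-type replicates 1, 6 or 7 or knockout replicate 3 (adjusted p = 0.0702 to 0.103), and Canx did not pass (0.12).

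Interferon-inducible GTPases, which attack vacuoles holding microbes, fell in 14 of 19 cases, with 0 rises and a median of -1.19. Promoters of 3 members follow, since these genes move together and carry the interferon-stimulated response motif, in capitals: Igtp (chr11:58199436-58199555, plus strand), Irgm1 (chr11:48871421-48871540, minus strand) and Tgtp2 (chr11:49064213-49064332, minus strand), each the 120 bases before the start site from the same source.
Igtp: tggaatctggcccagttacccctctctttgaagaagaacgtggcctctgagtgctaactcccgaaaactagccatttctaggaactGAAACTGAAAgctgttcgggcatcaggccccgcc
Irgm1: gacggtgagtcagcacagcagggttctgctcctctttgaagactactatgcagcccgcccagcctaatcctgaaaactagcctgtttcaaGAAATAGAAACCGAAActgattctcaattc
Tgtp2: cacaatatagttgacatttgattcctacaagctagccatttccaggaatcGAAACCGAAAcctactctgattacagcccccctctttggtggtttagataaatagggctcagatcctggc
The motif begins 34 bases before the start in Igtp, 70 in Tgtp2, and 30 and 24 in Irgm1, where the matches overlap. On either strand it was in 9 of 11 GTPase promoters (81.8%) and in 14 of 24 promoters of the type I interferon list (58.3%), against 3.44% of all promoters and 3.20% of those of tested genes. Both lists were drawn up as interferon response genes, so these shares do not bear on the knockout. Of promoters of genes changed at least 4-fold, 21 of 354 that fell (5.93%) and 3 of 42 that rose (7.14%) held the motif.

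Iigp1 stood at 16.7, 6.84 and 7.34 CPM in wild type and 1.72, 1.35 and 0.448 CPM in the knockout (log2 fold change -3.09 ± 0.51, adjusted p = 0.00441), Tgtp2 at 75.8, 36.3 and 37 CPM in wild type and 13, 12 and 4.86 CPM in the knockout (log2 fold change -2.31 ± 0.46, adjusted p = 0.0149). Igtp stood at 76.8, 47.4 and 42.9 CPM in wild type and 23.5, 29.6 and 19.8 CPM in the knockout (log2 fold change -1.19 ± 0.24, adjusted p = 0.0101). Wild-type replicate 1 was the highest for all 3, the reverse of the class II genes, and the groups did not overlap. In the wider type I interferon list 7 of 29 genes fell, 0 rose and 22 did not pass (median -0.53). With library totals alone 12 fell. Isg15 fell (log2 fold change -1.37 ± 0.27, adjusted p = 0.0077) and Xaf1 fell (log2 fold change -1.26 ± 0.23, adjusted p = 0.00453), whereas the sensors and antiviral enzymes Ifih1 (-0.02), Ddx58 (0.10), Eif2ak2 (0.07) and Oas3 (0.23) did not pass. In the interferon-gamma axis 10 of 20 genes fell and 2 rose, and the falls became 6 without wild-type replicate 7 or knockout replicate 3. Ifng itself, made by T and NK cells, stood at 1.39, 1.75 and 4.39 CPM in wild type and 0.443, 0.437 and 0.512 CPM in the knockout (log2 fold change -2.43 ± 0.49, adjusted p = 0.0068), and its target Cxcl9 at 6.29, 4.16 and 5.79 CPM in wild type and 0.72, 1.31 and 0.192 CPM in the knockout (log2 fold change -2.76 ± 0.45, adjusted p = 0.00328). The receptor chains Ifngr1 (0.27) and Ifngr2 (0.15) and the kinases Jak1 (0.27) and Jak2 (-0.01) did not pass.

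Erythroid regulators and red cell genes fell in part. Of 14 erythroid transcription factors and progenitor genes 11 fell and 1 rose (median -1.47). Gata1, the master factor of the lineage, stood at 31.3, 37.4 and 56.2 CPM in wild type and 14.7, 17.3 and 14.3 CPM in the knockout (log2 fold change -1.43 ± 0.21, adjusted p = 0.00218), Klf1 at 38.5, 48.2 and 72.1 CPM in wild type and 17.6, 23.9 and 13.9 CPM in the knockout (log2 fold change -1.51 ± 0.27, adjusted p = 0.00649). Epor, the erythropoietin receptor, stood at 13.4, 20.7 and 28.9 CPM in wild type and 8.91, 7.75 and 5.38 CPM in the knockout (log2 fold change -1.51 ± 0.29, adjusted p = 0.0074). The groups did not overlap for these, with wild-type replicate 7 the highest. Of 19 globin and red cell membrane genes 11 fell and 8 did not pass. Hbb-b1 stood at 614, 1669.8 and 3808 CPM in wild type and 311, 411 and 227 CPM in the knockout (log2 fold change -2.68 ± 0.70, adjusted p = 0.036). Hba-a1 stood at 705, 1836 and 4295 CPM in wild type and 442, 525 and 296 CPM in the knockout (log2 fold change -2.44 ± 0.69, adjusted p = 0.0454). Wild-type replicates spanned several fold for both, and the knockout libraries all lay below the lowest of them. The count of 11 became 0 without knockout replicate 3, 1 without wild-type replicate 6, 2 without knockout replicate 10, 6 without knockout replicate 9, 7 without wild-type replicate 7 and 18 without wild-type replicate 1, and the calls were lost for Hbb-b1 without wild-type replicate 6 or knockout replicates 3, 9 or 10 (adjusted p = 0.0744 to 0.124) and for Hba-a1 without wild-type replicate 6 or knockout replicates 3, 9 or 10 (adjusted p = 0.092 to 0.146). Hbb-b2 and Hbb-bt have identical values in each library. Of 13 haem synthesis genes 5 fell, a count that became 2 without knockout replicates 3 or 10, 3 without wild-type replicate 6 and 10 without wild-type replicate 1, and 9 with library totals alone. Uros and Urod fell, with log2 fold changes of -1.17 and -0.77, and Alas2, the erythroid first enzyme, did not pass (-1.94, adjusted p = 0.1).

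Megakaryocyte and platelet genes fell in 18 of 22 cases with 1 rise (median -1.66). Gp9, a subunit of the von Willebrand factor receptor, stood at 7.63, 9.07 and 8.69 CPM in wild type and 1.55, 1.75 and 2.75 CPM in the knockout (log2 fold change -2.08 ± 0.24, adjusted p = 0.000772). Tubb1, the platelet tubulin, stood at 24.5, 19.2 and 15.9 CPM in wild type and 3.43, 3.22 and 5.76 CPM in the knockout (log2 fold change -2.28 ± 0.25, adjusted p = 0.000738). Ppbp, a chemokine stored in platelets, stood at 113, 78.1 and 73.4 CPM in wild type and 8.69, 9.23 and 24.1 CPM in the knockout (log2 fold change -2.67 ± 0.45, adjusted p = 0.00875). Knockout replicate 10 was the highest of its group for all 3, and the groups did not overlap. Gp5 and Gp6, a collagen receptor subunit, fell, with log2 fold changes of -2.25 and -2.73. Selp, which platelets and endothelium share, rose (log2 fold change 1.02 ± 0.16, adjusted p = 0.00256), and Itgb3 (-0.38) and P2ry12 (0.43) did not pass.

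Eosinophil and basophil genes fell with a different spread among the libraries. Of 12 eosinophil genes 7 fell and 1 rose (median -1.45). Epx, the eosinophil peroxidase, stood at 332, 315 and 253 CPM in wild type and 66.8, 147 and 107 CPM in the knockout (log2 fold change -1.49 ± 0.27, adjusted p = 0.00635). Prg2, the major basic protein, stood at 2517, 1692 and 1486 CPM in wild type and 384, 1003 and 745 CPM in the knockout (log2 fold change -1.42 ± 0.36, adjusted p = 0.0231). Wild-type replicate 1 was the highest of its group and knockout replicate 9 of the other, and the groups did not overlap. The eosinophil count became 1 without knockout replicate 10, 2 without wild-type replicate 6, 3 without knockout replicate 3 and 4 without wild-type replicate 1, and the call was lost for Prg2 without wild-type replicates 1 or 6 or knockout replicate 10 (adjusted p = 0.0527 to 0.0833). Of 14 genes of basophils and mast cells 5 passed as lower and 1 as higher, a count of falls that became 2 without wild-type replicates 1 or 6 or knockout replicates 3 or 10 and 10 without knockout replicate 9. Gata2, a factor these cells share with stem cells, stood at 42, 33.7 and 33.4 CPM in wild type and 12.6, 19.2 and 15.7 CPM in the knockout (log2 fold change -1.19 ± 0.17, adjusted p = 0.00152), Mcpt8 (-1.58, adjusted p = 0.0889) and Cpa3 (-1.12, adjusted p = 0.0995) did not pass, and the histamine-forming enzyme Hdc, which neutrophil precursors also express, rose (log2 fold change 0.56 ± 0.11, adjusted p = 0.00559).

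**Figure D4:**
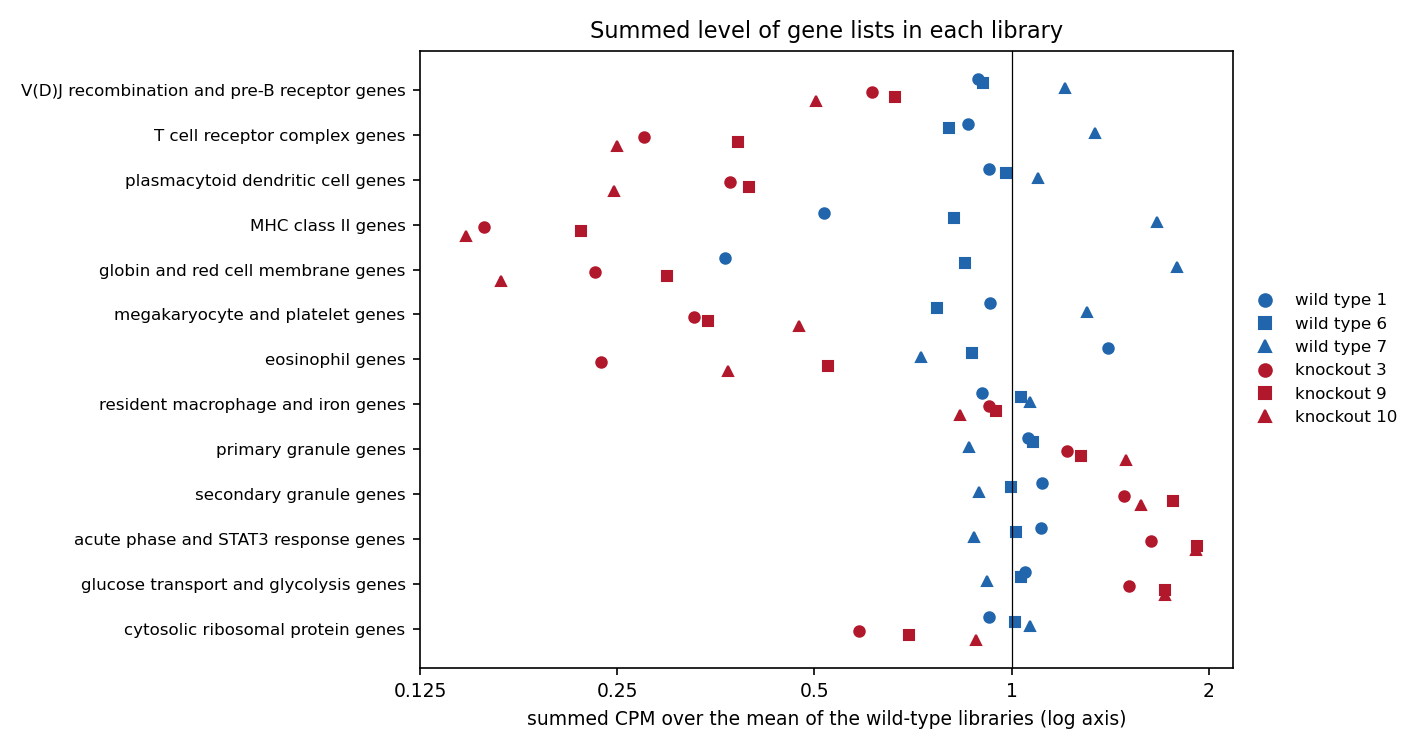
Summed CPM of the members of 13 lists in each library, divided by the wild-type mean of that list (x axis, log scale), wild type in blue and knockout in red. MHC class II and globin sums spread over the wild-type libraries with replicate 7 highest, eosinophil sums spread with replicate 1 highest, and neutrophil granule, acute phase and glycolysis sums lie above the wild-type mean in the knockout.

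Neutrophil genes rose, and many of them are among the abundant genes of marrow. Of 20 secondary granule genes, made by neutrophil precursors at the myelocyte stage, 16 rose and 0 fell (median 0.75). Ltf, lactoferrin, stood at 8504, 8174 and 7543 CPM in wild type and 13447, 15933 and 12101 CPM in the knockout (log2 fold change 0.78 ± 0.16, adjusted p = 0.00801). Lcn2 stood at 4093, 3757 and 3271 CPM in wild type and 5971, 6947 and 7018 CPM in the knockout (log2 fold change 0.84 ± 0.15, adjusted p = 0.00445). Cd177, a surface protein of activated neutrophils, stood at 1543, 1476 and 1262 CPM in wild type and 2782, 3284 and 3115 CPM in the knockout (log2 fold change 1.1 ± 0.14, adjusted p = 0.00109). Each knockout library lay above each wild-type library for these 3. Ifitm6 and Abca13 rose by 1.61 and 1.75 on the log2 scale. Camp (-0.04), Ly6g (0.35) and Olfm4 (-0.28) did not pass.

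Earlier and later neutrophil genes were less uniform. Of 14 primary granule genes 9 rose and 0 fell, a count of rises that became 2 without wild-type replicate 7 and 3 without wild-type replicate 1, and 3 with library totals alone. Mpo stood at 2039.6, 2382 and 1877 CPM in wild type and 3783, 2752 and 5334 CPM in the knockout (log2 fold change 0.91 ± 0.23, adjusted p = 0.0165). Elane, neutrophil elastase, stood at 724, 928 and 699 CPM in wild type and 1275, 975 and 2021 CPM in the knockout (log2 fold change 0.86 ± 0.26, adjusted p = 0.0337), with knockout replicate 10 the highest for both and no overlap. Fcnb rose (log2 fold change 0.59 ± 0.13, adjusted p = 0.00912), Lyz2 did not pass (-0.01, adjusted p = 0.97), and the call was lost for Mpo without wild-type replicate 7 (adjusted p = 0.06) and for Elane without wild-type replicates 1 or 7 or knockout replicate 3 (adjusted p = 0.0646 to 0.103). Of 32 mature neutrophil genes 18 rose and 0 fell (median 0.89). The receptors for neutrophil chemokines both rose, Cxcr2 from 521, 386 and 336 to 799.8, 1083 and 711 CPM (log2 fold change 1.06 ± 0.20, adjusted p = 0.00564) and Cxcr1 from 3.4, 3.11 and 1.92 to 11.6, 13 and 10.2 CPM (log2 fold change 2.05 ± 0.23, adjusted p = 0.000677). Asprv1, a skin and neutrophil protease, stood at 63.7, 61.6 and 44.4 CPM in wild type and 227, 342 and 359 CPM in the knockout (log2 fold change 2.45 ± 0.21, adjusted p = 0.000356). Lrg1 stood at 201, 219 and 152 CPM in wild type and 648, 649.6 and 725 CPM in the knockout (log2 fold change 1.82 ± 0.15, adjusted p = 0.000265). The most abundant genes of the list, S100a8 (0.42, adjusted p = 0.179) and S100a9 (0.47, adjusted p = 0.117), did not pass, nor did Il1b, Fpr1 or Retnlg. The stefin genes Stfa2, Stfa3 and BC100530, which are close copies, rose by 2.7, 1.48 and 2.42 on the log2 scale, and reads may be split among them. Of 10 genes of the phagocyte oxidase 5 rose, among them Ncf1 (0.78), Ncf4 (0.76) and Cybb (0.79), and the count became 3 without wild-type replicate 6. Cyba (0.31) did not pass.

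Among transcription factors of the granulocyte and monocyte branches 6 of 20 rose and 2 fell, with a median of 0.06 that became -0.12, with 4 falls, under library totals alone. Spi1, which encodes PU.1, stood at 272, 266 and 226 CPM in wild type and 410.3, 430.0 and 395 CPM in the knockout (log2 fold change 0.69 ± 0.11, adjusted p = 0.00307). Cebpb, the factor of stress granulopoiesis, stood at 69.1, 69.1 and 76 CPM in wild type and 125, 128 and 119 CPM in the knockout (log2 fold change 0.80 ± 0.092, adjusted p = 0.000781). Gfi1 and Nfil3 rose by 0.78 and 1.01 on the log2 scale, and Cebpa (-0.15) and Runx1 (0.03) did not pass. Irf8, which favours monocytes over granulocytes, and Klf4 (-0.53) were the 2 that fell, with the call lost for Klf4 without wild-type replicates 6 or 7 or knockout replicate 3 (adjusted p = 0.0536 to 0.0669).

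Acute phase and STAT3 response genes rose in 16 of 24 cases with 0 falls (median 0.80). Nos2, the inducible nitric oxide synthase, was near 0 in wild type, at 0.309, 0.263 and 0.14 CPM, and stood at 11.5, 7.75 and 27.8 CPM in the knockout (log2 fold change 6.01 ± 0.68, adjusted p = 0.00165). Saa3, an acute phase apolipoprotein, went from 0.618, 1.27 and 0.935 to 15.4, 4.77 and 13.1 CPM (log2 fold change 3.52 ± 0.49, adjusted p = 0.00256). Prok2, a neutrophil-derived secreted factor, went from 2.83, 6.09 and 3.18 to 38, 36.5 and 45.8 CPM (log2 fold change 3.3 ± 0.27, adjusted p = 0.000356). Knockout replicate 10 was the highest for Nos2 and Prok2 and replicate 3 for Saa3, and no group overlapped. Steap4, a metalloreductase, and Ifitm1 rose by 2.85 and 2.1 on the log2 scale. Stat3 stood at 267, 242 and 228 CPM in wild type and 384, 441 and 359 CPM in the knockout (log2 fold change 0.68 ± 0.12, adjusted p = 0.00404), and its feedback inhibitor Socs3 at 42.9, 31.5 and 39.8 CPM in wild type and 85.6, 112 and 75.3 CPM in the knockout (log2 fold change 1.26 ± 0.17, adjusted p = 0.00136). Il6ra (0.46), Il6st (-0.23) and Il1rn (-0.18) did not pass.

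The TNF and NF-kB list gave 1 rise, of Birc3 (0.34), and 2 falls, of Il1a and Traf1 (-1.25), among 24 genes (median 0.13, and -0.05 with library totals alone). Il1a fell from 0.773, 0.789 and 0.701 to 0.111, 0.119 and 0.128 CPM (log2 fold change -2.6 ± 0.42, adjusted p = 0.00286). Tnf (0.29, adjusted p = 0.14), Il1b (0.20, adjusted p = 0.78) and Nfkbia (0.30, adjusted p = 0.334) did not pass. Cxcl2 spread widely within wild type, at 6.03, 23.6 and 98.4 CPM, and overlapped with the knockout, at 45.5, 104 and 77.3 CPM. The count of falls became 1 without wild-type replicate 7 or knockout replicate 10 and 4 without wild-type replicate 1, and 4 with library totals alone. The count of rises became 0 without wild-type replicates 1 or 6 or knockout replicates 3 or 9, 2 without knockout replicate 10 and 3 without wild-type replicate 7. Immediate early genes gave 1 rise, of Fosl2 (0.91), and 3 falls, of Egr3 (-2.71), Nr4a3 (-1.85) and Klf4, among 23. Fos (0.25), Jun (0.27) and Egr1 (-0.82) did not pass, and wild-type replicate 7 had the highest Egr1 and Jun of the 6 libraries. The falls among them became 1 without wild-type replicates 6 or 7 or knockout replicate 3 and 5 without wild-type replicate 1, and the rises became 3 without wild-type replicate 7 or knockout replicate 3. In these lists the call was lost for Birc3 without wild-type replicates 1, 6 or 7 or knockout replicates 3 or 9 (adjusted p = 0.0745 to 0.172), Traf1 without wild-type replicate 7 or knockout replicates 9 or 10 (adjusted p = 0.0684 to 0.0877), Egr3 without knockout replicate 3 (adjusted p = 0.054), Nr4a3 without wild-type replicates 6 or 7 or knockout replicates 9 or 10 (adjusted p = 0.0541 to 0.0977) and Klf4 without wild-type replicates 6 or 7 or knockout replicate 3 (adjusted p = 0.0536 to 0.0669).

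Receptor genes moved in both directions. Among pattern recognition receptor genes 10 of 27 rose and 1 fell, and the rises became 6 without wild-type replicate 6 or knockout replicate 3. Tlr2 stood at 79.5, 73.4 and 77.3 CPM in wild type and 152, 189 and 136 CPM in the knockout (log2 fold change 1.05 ± 0.13, adjusted p = 0.000903), Tlr6 rose by 0.95 on the log2 scale, and their adaptor Myd88 stood at 105, 99.5 and 89.5 CPM in wild type and 172, 194 and 169 CPM in the knockout (log2 fold change 0.86 ± 0.11, adjusted p = 0.000914). Tlr7 and Nlrp3 (-0.41) did not pass. Of 27 cytokine receptor genes 7 rose and 7 fell (median 0.12, and -0.06 with library totals alone). Csf2rb, the shared chain of the GM-CSF, interleukin-3 and interleukin-5 receptors, stood at 322, 294 and 224 CPM in wild type and 697, 713 and 657 CPM in the knockout (log2 fold change 1.3 ± 0.15, adjusted p = 0.000772). Il4ra stood at 112, 110.5 and 125 CPM in wild type and 276, 303 and 276 CPM in the knockout (log2 fold change 1.3 ± 0.10, adjusted p = 0.000222), and the groups overlapped for neither. Falls were led by Il7r, Epor and Il2rb (-1.48), and became 3 without knockout replicate 3 and 4 without wild-type replicate 7. Of 19 chemokine receptor genes 8 fell, among them the lymphocyte receptors Ccr7 and Cxcr5 and the dendritic cell receptor Ccr9, and 4 rose, Cxcr1 and Cxcr2, the monocyte and granulocyte receptor Ccr1 (0.97), and S1pr4 (0.37), whose call was lost for S1pr4 without wild-type replicates 6 or 7 or knockout replicate 9 (adjusted p = 0.0978 to 0.138).

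Most monocyte genes, like most genes tested, did not pass: 16 of 21 were not called, 2 rose and 3 fell (median -0.12). Over all genes tested 31.4% were called, 15.6% as risen and 15.8% as fallen. Csf1r (-0.12), Ccr2 (0.14) and Ly6c2 (-0.18) did not pass. Vcan, a matrix proteoglycan of monocytes, stood at 45.4, 62.2 and 22.4 CPM in wild type and 205, 191 and 129 CPM in the knockout (log2 fold change 2.01 ± 0.39, adjusted p = 0.0124). Ace, of the non-classical subset, stood at 31.6, 34.7 and 29.2 CPM in wild type and 8.91, 14.2 and 5.63 CPM in the knockout (log2 fold change -1.71 ± 0.29, adjusted p = 0.0048). The falls became 1 without wild-type replicate 6 or knockout replicate 3. Resident macrophage genes fell in 15 of 30 cases and rose in 3 (median -0.55), and the rises became 1 without wild-type replicates 1 or 7 or knockout replicates 3 or 9. Mrc1, the mannose receptor, stood at 33.4, 42.4 and 35.2 CPM in wild type and 8.36, 8.91 and 5.38 CPM in the knockout (log2 fold change -2.28 ± 0.19, adjusted p = 0.000265). Fcna, a ficolin, stood at 23.7, 37.1 and 31 CPM in wild type and 4.93, 6.52 and 5.12 CPM in the knockout (log2 fold change -2.46 ± 0.20, adjusted p = 0.000222). Vsig4, Cd5l and Timd4 fell, with log2 fold changes of -2.57, -2.48 and -2.06. Complement genes did not pass: C1qb stood at 53.8, 73.9 and 40.7 CPM in wild type and 126, 31.9 and 38.1 CPM in the knockout, with knockout replicate 3 above all other libraries and the other knockout libraries below wild type. Itgax (26.5, 37.9 and 29.3 CPM in wild type and 108, 22 and 22.8 CPM in the knockout) and Pparg (6.24, 8.5 and 4.02 CPM in wild type and 16.7, 3.94 and 4.29 CPM in the knockout) were also highest in knockout replicate 3.

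Stem cell genes gave 8 falls and 1 rise among 24 tested, with 15 that did not pass (median -0.66). Slamf1, which encodes the stem cell marker CD150, stood at 4.64, 4.43 and 6.4 CPM in wild type and 0.941, 0.875 and 0.96 CPM in the knockout (log2 fold change -2.48 ± 0.26, adjusted p = 0.000502). Ly6a, which encodes Sca-1, stood at 183, 197 and 108 CPM in wild type and 38.6, 51.3 and 46.4 CPM in the knockout (log2 fold change -1.84 ± 0.23, adjusted p = 0.00152). Neither overlapped. Lymphocytes and endothelium also express Ly6a, and megakaryocytes and lymphocytes Slamf1. Other stem cell genes did not pass, with Mecom at 1.03, 0.964 and 1.07 CPM in wild type and 0.443, 0.756 and 0.576 CPM in the knockout (-0.76), Meis1 (-0.40), Hoxa9 (-0.07), Hlf (0.28) and Kit (0.12). In a separate list of 7 stem cell factors 1 rose, 3 fell and 3 did not pass. Their log2 fold changes ran from -1.19 to 0.87. The rise was of Erg, an ETS factor, from 33.5, 30.4 and 27.8 to 53.1, 60.1 and 54.5 CPM (log2 fold change 0.87 ± 0.11, adjusted p = 0.000932). The falls among the 24 stem cell genes became 5 without wild-type replicate 7.

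Genes of the niche, the marrow's supporting tissue, were mostly low. Cxcl12, which holds stem cells and B precursors in place, stood at 58.9, 50.3 and 64.5 CPM in wild type and 21.3, 33.4 and 6.91 CPM in the knockout, without overlap and with knockout replicate 10 the lowest, and did not pass (log2 fold change -1.48 ± 0.52, adjusted p = 0.0847). Nor did its receptor Cxcr4 (-0.36, adjusted p = 0.0997) or Kitl (-0.99). Adipoq, of adipocyte-primed stroma, stood at 4.28, 5.13 and 4.21 CPM in wild type and 0.221, 1.19 and 0.384 CPM in the knockout (log2 fold change -2.81 ± 0.46, adjusted p = 0.00304). Jag1, a Notch ligand, rose (log2 fold change 1.24 ± 0.16, adjusted p = 0.00107). Of 21 endothelial genes 9 fell, among them Cd34 (log2 fold change -0.71 ± 0.11, adjusted p = 0.00237) and Vwf, which blood cells also express, and the count became 5 without wild-type replicate 7. Cdh5 (-1.07), Kdr (-0.39) and Tie1 (-0.13) did not pass.

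Genes of glucose metabolism rose broadly. Of 30 genes of glucose transport, glycolysis and glycogen 23 rose and 2 fell (median 0.68), and each knockout library lay above each wild-type library for 27. The glucose transporter Slc2a3 went from 366, 313 and 296 to 601, 815 and 579 CPM (log2 fold change 1.03 ± 0.16, adjusted p = 0.00229). The enzymes Hk3 (0.82), Gpi1 (0.77), Pgam1 (0.74), Eno1 (0.75) and Pkm (0.78) rose, as did the regulators Pfkfb3 (0.83) and Pfkfb4 (0.93) and the glycogen enzymes Gys1 (1.02) and Pygl (0.84). Pfkm, the muscle and erythroid isoform, fell (log2 fold change -1.06 ± 0.21, adjusted p = 0.00653). The first enzyme of the pentose phosphate path, G6pdx, stood at 518, 498 and 374 CPM in wild type and 1067, 1185 and 1151 CPM in the knockout (log2 fold change 1.29 ± 0.15, adjusted p = 0.000781). Of 20 other hypoxia response genes 7 rose and 0 fell (median 0.06, and -0.11 with 3 falls under library totals alone): Hif1a rose (log2 fold change 0.65 ± 0.096, adjusted p = 0.00191) and Vegfa rose (log2 fold change 0.81 ± 0.098, adjusted p = 0.000876), whereas Pdk1 (-0.06), Bnip3 (0.30) and Car9 (0.05) did not pass. Neutrophil genes moved with this list, and their part in it was not tested.

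The promoters of Slc2a1, for a glucose transporter, and Slc16a3, for a lactate transporter, are shown with the hypoxia response core ACGTG in capitals. Each line gives the 120 bases before the start site: Slc2a1 (chr4:119108625-119108744, plus strand) and Slc16a3 (chr11:120948947-120949066, plus strand). Matches begin 36 bases before the start in the former and 27 and 14 in the latter.
Slc2a1: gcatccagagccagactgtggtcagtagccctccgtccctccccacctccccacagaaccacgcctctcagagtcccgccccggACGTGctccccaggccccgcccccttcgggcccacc
Slc16a3: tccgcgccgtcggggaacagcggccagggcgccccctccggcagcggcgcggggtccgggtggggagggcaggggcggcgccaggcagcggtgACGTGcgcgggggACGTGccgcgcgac
On either strand ACGTG was in 24 of 44 promoters of the glycolysis list (54.5%), against 19.6% of all promoters and 25.0% of those of tested genes, and in 22.7% of promoters of the genes that rose at least 2-fold. Slc2a1 stood at 26.5, 26 and 29.3 CPM in wild type and 63.7, 73.6 and 75 CPM in the knockout and Slc16a3 at 142, 137 and 129.6 CPM in wild type and 252, 309 and 273 CPM in the knockout, both without overlap (1.37 and 1.03 on the log2 scale). The core motif of EBF, the factor family of Ebf1, was in 1 of 14 promoters of the V(D)J and pre-B list (7.14%) and 2 of 19 of the B cell surface list (10.5%), against 17.8% of tested genes, and the sterol response motif in 1 of 22 of the sterol list (4.55%), against 1.12%.

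Sterol genes rose in part, 13 of 26 with 0 falls (median 0.44). Hmgcs1, a synthase early in the pathway, stood at 31.6, 32.2 and 26.4 CPM in wild type and 42.6, 53.4 and 48.8 CPM in the knockout (log2 fold change 0.68 ± 0.12, adjusted p = 0.00432). Msmo1, an oxidase late in it, stood at 36, 33.1 and 26.4 CPM in wild type and 43.1, 53 and 58.6 CPM in the knockout (log2 fold change 0.70 ± 0.15, adjusted p = 0.00851). The groups overlapped for neither. Cyp51, Lss and Dhcr7 did not pass (0.24, 0.12 and -0.23), and the count of rises became 7 without wild-type replicate 6 and 8 without wild-type replicates 1 or 7 and 6, with 1 fall, with library totals alone. Of 25 genes of fatty acid synthesis and oxidation 9 rose and 4 fell (median 0.18). Against this direction, the desaturase Scd1 fell from 25.1, 45.3 and 121 to 3.05, 7.64 and 6.47 CPM (log2 fold change -3.46 ± 0.72, adjusted p = 0.019), a call lost for Scd1 without wild-type replicate 6 or knockout replicates 3 or 10 (adjusted p = 0.0521 to 0.0773), and the fatty acid carrier Cd36 from 12.8, 9.64 and 15.7 to 1.94, 3.7 and 1.6 CPM (log2 fold change -2.35 ± 0.31, adjusted p = 0.00143), while Acaca (0.55) and Scd2 (0.69) rose. Among redox genes 8 rose and 8 fell of 31. The rises became 5 without wild-type replicate 7, and the falls became 5 without wild-type replicate 6 or knockout replicate 3. Ggt1, which breaks down extracellular glutathione, had the largest rise of them, from 3.04, 4.6 and 2.01 to 34.9, 32.9 and 48.8 CPM (log2 fold change 3.58 ± 0.29, adjusted p = 0.000356), and Sod1 fell (log2 fold change -0.74 ± 0.10, adjusted p = 0.00131). Genes of the respiratory chain gave 1 fall among 35 (median -0.19), a count that became 0 without wild-type replicate 6 or knockout replicates 3 or 9 and 13 without knockout replicate 10. With library totals alone 18 of them fell (median -0.37).

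Proliferation genes moved by small amounts. Of 26 mitotic genes 11 rose and 0 fell, with a median of 0.28. Plk1, a mitotic kinase, stood at 71.9, 73.9 and 78.3 CPM in wild type and 104, 91.3 and 108 CPM in the knockout (log2 fold change 0.43 ± 0.099, adjusted p = 0.0107), and Cdk1 (0.04), Ccna2 (0.09) and Top2a (0.30) did not pass. The rises became 1 without wild-type replicate 7, 3 without wild-type replicate 6, 4 without knockout replicate 3 and 6 without wild-type replicate 1 or knockout replicate 10 and 0 with library totals alone. Of 27 DNA replication genes 0 rose and 3 fell (median -0.20), and the falls became 0 without wild-type replicates 6 or 7 or knockout replicates 3 or 9 and 1 without wild-type replicate 1, and 12 with library totals alone. Cytosolic ribosomal protein genes fell in 21 of 39 cases with 0 rises (median -0.49). Rps7 stood at 1034, 1100.4 and 1104 CPM in wild type and 505, 663 and 788 CPM in the knockout (log2 fold change -0.73 ± 0.16, adjusted p = 0.0106). Rpl35 stood at 518, 582 and 579 CPM in wild type and 263, 338 and 429.8 CPM in the knockout (log2 fold change -0.70 ± 0.17, adjusted p = 0.0142). Knockout replicate 10 was the nearest to wild type in both, and the count of falls became 2 without wild-type replicates 6 or 7 or knockout replicate 3, 3 without knockout replicate 9, 12 without wild-type replicate 1 and 37 without knockout replicate 10, and 37 with library totals alone. Rn45s, the ribosomal RNA precursor, which poly(A) selection should mostly remove, stood at 1887, 1909 and 1718 CPM in wild type and 617, 1182 and 609 CPM in the knockout (log2 fold change -1.19 ± 0.25, adjusted p = 0.00897), and its part in these values was not tested.

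The proteins through which Hopx is known to act were near even themselves. Of 14 tested partner genes 3 rose and 0 fell (median 0.06, and -0.12 with library totals alone). Hdac2 stood at 68, 69.1 and 75.1 CPM in wild type and 56.4, 59.9 and 67 CPM in the knockout and did not pass (log2 fold change -0.21 ± 0.10, adjusted p = 0.138), nor did Hdac1 (0.07), Hdac3 (0.05), Smad4 (0.26) or Ctnnb1 (0.15). Smad1, which carries BMP signals, stood at 8.25, 11 and 8.5 CPM in wild type and 17.2, 16.1 and 18.2 CPM in the knockout (log2 fold change 0.89 ± 0.15, adjusted p = 0.00325), without overlap. Srf stood at 62.4, 67.8 and 62.6 CPM in wild type and 82.8, 80.3 and 85.1 CPM in the knockout (log2 fold change 0.36 ± 0.089, adjusted p = 0.0145), a call lost for Srf without wild-type replicate 7 (adjusted p = 0.0553). The partner count became 1 without wild-type replicate 7. Among chromatin regulators Hdac4 (1.08) and Kdm6b (0.83) rose, Hdac9 (-1.41) and Hdac11 (-2.03) fell, and Dnmt3a (-0.01) and Sirt1 (-0.02) did not pass.

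Among SRF target genes 8 of 23 rose and 3 fell (median 0.21). The promoters of Srf and its target Myl9 and of Hopx itself hold a CArG box, the SRF binding sequence, which is in capitals in the bases before the start site: Srf (chr17:46556163-46556282, minus strand), Myl9 (chr2:156775284-156775463, plus strand) and Hopx (chr5:77115124-77115243, minus strand), with matches beginning 82 and 62, 161 and 83 bases before the start.
Srf: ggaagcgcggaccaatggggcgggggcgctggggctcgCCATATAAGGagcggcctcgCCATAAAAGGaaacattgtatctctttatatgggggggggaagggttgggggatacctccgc
Myl9: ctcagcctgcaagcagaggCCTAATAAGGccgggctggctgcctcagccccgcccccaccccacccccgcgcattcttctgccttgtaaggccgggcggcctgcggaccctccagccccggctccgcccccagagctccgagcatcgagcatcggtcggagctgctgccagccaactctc
Hopx: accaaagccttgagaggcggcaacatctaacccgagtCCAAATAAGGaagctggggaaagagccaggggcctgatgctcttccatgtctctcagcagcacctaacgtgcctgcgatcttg
A CArG box was in 11 of 25 promoters of the SRF target list (44.0%), against 1.63% of all promoters and 1.33% of those of tested genes. The list was drawn up as SRF targets, so this share does not bear on the knockout. Of promoters of genes changed at least 4-fold, 9 of 354 that fell (2.54%) and 0 of 42 that rose held the box. Flna, an actin cross-linker, stood at 2258, 2242 and 1746 CPM in wild type and 4049.7, 4413 and 3543 CPM in the knockout (log2 fold change 0.94 ± 0.16, adjusted p = 0.00341). Vcl, vinculin, stood at 311, 274 and 228 CPM in wild type and 438, 475 and 366 CPM in the knockout (log2 fold change 0.65 ± 0.15, adjusted p = 0.0107). Myl9, a myosin light chain of platelets and smooth muscle, went the other way, from 12.2, 10.3 and 8.6 to 1.16, 1.47 and 2.37 CPM (log2 fold change -2.65 ± 0.27, adjusted p = 0.000487), as did Tpm1 (log2 fold change -0.60 ± 0.11, adjusted p = 0.00472). The rises became 3 without wild-type replicate 7 and 4 without wild-type replicate 6, and 4 with library totals alone. Platelet and neutrophil genes moved with Myl9 and Flna respectively, and their part in these values was not tested. In the TGF-beta, BMP and Wnt list 5 of 22 rose and 7 fell, and the rises became 2 without wild-type replicates 1, 6 or 7 or knockout replicate 9 and 3 without knockout replicate 3, and 1 with library totals alone. Lgr5, a Wnt target and receptor, fell from 4.17, 2.15 and 2.71 to 0.111, 0.159 and 0 CPM (log2 fold change -4.82 ± 0.56, adjusted p = 0.000781), and Axin2, the common feedback target of Wnt signalling, from 3.76, 2.28 and 3.74 to 0.775, 2.03 and 0.96 CPM (log2 fold change -1.33 ± 0.38, adjusted p = 0.0273), a call lost for Axin2 without wild-type replicates 1 or 7 or knockout replicates 3 or 10 (adjusted p = 0.064 to 0.0891), while Tgfbi rose (log2 fold change 0.94 ± 0.15, adjusted p = 0.00242) and Smad7 (0.17), Id2 (0.13) and Tgfb1 (0.01) did not pass.

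Genes next to Hopx on chromosome 5 were examined because they lie on the same stretch of DNA as the knockout allele. Within 5 Mb 49 protein-coding genes are annotated. Of the genes of any type there 34 were tested, 6 rose, 4 fell and 24 did not pass. So 29.4% were called against 31.4% of all genes, with a median log2 fold change of 0.087. Within 1 Mb 14 were tested, of which 4 rose and 2 fell. Spink2, a protease inhibitor gene next to Hopx, stood at 0.515, 0.57 and 0.421 CPM in wild type and 1.22, 1.31 and 1.79 CPM in the knockout (log2 fold change 1.5 ± 0.33, adjusted p = 0.00934). Igfbp7 stood at 4.43, 4.08 and 5.09 CPM in wild type and 2.33, 1.91 and 0.64 CPM in the knockout (log2 fold change -1.45 ± 0.37, adjusted p = 0.0168). Paics, a purine synthesis enzyme, stood at 176, 169 and 176 CPM in wild type and 121, 137 and 147 CPM in the knockout (log2 fold change -0.36 ± 0.10, adjusted p = 0.0274). Exoc1, of the exocyst, rose by 0.57 on the log2 scale, and the kinase gene Txk, known from T cells, fell by 1.35. Clock (0.31) and Pdgfra (-0.55) did not pass, and neither did Kit. The call was lost for Igfbp7 without wild-type replicate 7 (adjusted p = 0.0552), Paics without wild-type replicates 1, 6 or 7 or knockout replicates 3 or 9 (adjusted p = 0.0583 to 0.102) and Txk without wild-type replicate 7 or knockout replicate 3 (adjusted p = 0.0529 to 0.0556).

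**Figure D5:**
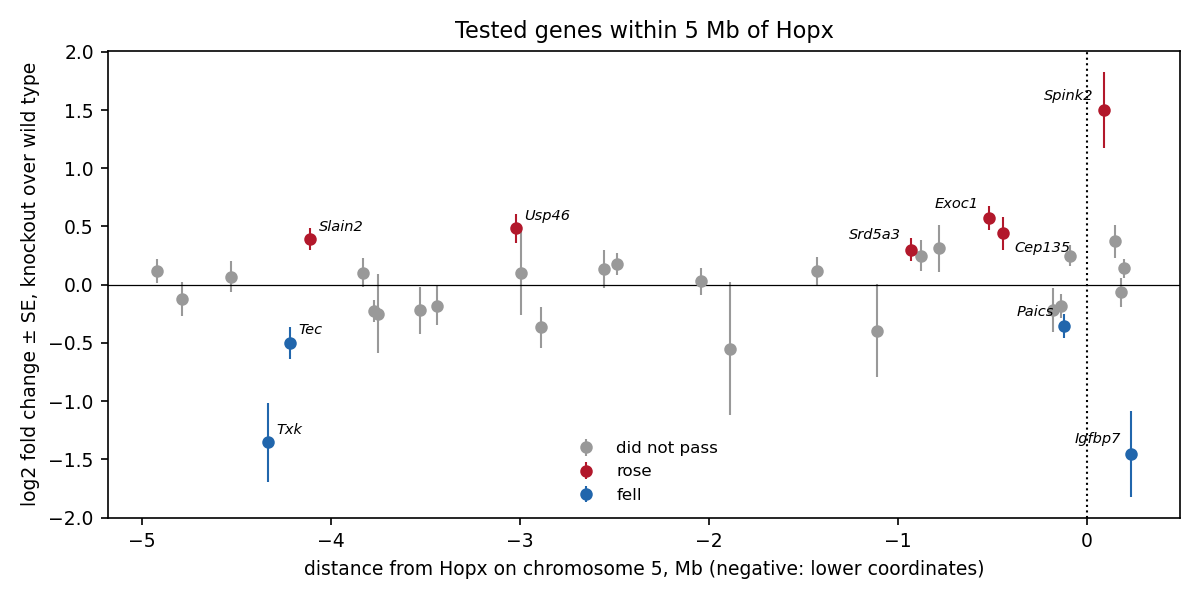
Log2 fold change ± SE (y axis) of the 34 tested genes within 5 Mb of Hopx on chromosome 5, by distance in Mb (x axis, lower coordinates to the left). The 6 genes that rose (red) and the 4 that fell (blue) lie on both sides and are interleaved with the 24 that did not pass (grey).

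Other large changes were of varied kinds. Lipg, endothelial lipase, rose from 20.9, 25.2 and 3.78 to 380.0, 128 and 286 CPM (log2 fold change 3.99 ± 0.82, adjusted p = 0.0194), a call lost for Lipg without wild-type replicates 1 or 6 or knockout replicate 10 (adjusted p = 0.0601 to 0.0627), with wild-type replicate 7 and knockout replicate 9 the lowest of their groups. Podxl, a sialomucin, rose from 1.86, 1.23 and 0.794 to 12.3, 10.2 and 9.22 CPM (log2 fold change 3.04 ± 0.28, adjusted p = 0.000356). Entpd3, Svep1, Igfbp6, Tgm1 and Wwtr1, which encodes the Hippo coactivator TAZ, rose by 3.51, 3.37, 2.77, 2.35 and 2.3 on the log2 scale. Snai1, a repressor known from epithelial-mesenchymal transition, rose from 1.75, 1.62 and 2.66 to 7.42, 9.58 and 12 CPM (log2 fold change 2.26 ± 0.26, adjusted p = 0.000781). Among falls, Cpm, a carboxypeptidase, went from 13.5, 11.7 and 16.6 to 0.0554, 0.358 and 0.128 CPM (log2 fold change -6.08 ± 0.37, adjusted p = 0.000121), Myl4, an atrial and fetal myosin light chain, from 12.4, 9.55 and 17.6 to 0.166, 0.477 and 0.448 CPM (log2 fold change -5.12 ± 0.37, adjusted p = 0.000144), and the scaffold gene Akap12 from 35.5, 28 and 41.9 to 1.55, 1.19 and 0.448 CPM (log2 fold change -5.0 ± 0.32, adjusted p = 0.000144). The GDNF family receptors Gfra1 and Gfra2 fell, with log2 fold changes of -4.82 and -4.26, and Tnfrsf19 and Cecr2 with -5.05 and -4.51. The groups overlapped for none of these.

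Only 8 genes had at most 3 counts in 1 group and at least 100 in the other. Klhl14, a B cell gene, had 244 counts in wild type and 2 in the knockout, a ratio of 113 (exact 95% interval 30.9 to 937). Tmem132e had 114 and 1, a ratio of 105 (18.5 to 4199), and Uchl1, a neuronal ubiquitin hydrolase, 174 and 3, a ratio of 53.6 (18.0 to 263). Gm5512 had 0 counts in wild type and 206 in the knockout, at least 74.3-fold higher with a floor of 3 counts over the group. Anxa8 had 119 and 1, but 113 of the wild-type counts came from replicate 7, and Gm2115 had 233 and 1, of which 2 were in wild-type replicate 7. These intervals cover counting error only.

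The knockout effect was set against the effect among the MN1 libraries by testing the difference of the log2 fold changes in 1 fit of all 12 libraries. The libraries labelled with and without MN1 also differed in stated age. The test therefore cannot tell MN1 apart from age or from other differences between the experiments. Of 13937 genes tested 463 (3.32%) differed, 267 toward a higher and 196 toward a lower value without MN1. The labels of the MN1 libraries bear on this: without TMM scaling, the level of Mn1 was 0.395, 36.4 and 0.160 CPM in replicates 2, 3 and 4 labelled MN1_WT, against 47.3, 46.3 and 22.1 CPM in replicates 5, 7 and 8 labelled MN1_KO, so Mn1 was raised in 1 of the 3 libraries labelled MN1_WT. Hopx stood at 27.9, 14.1 and 25.6 CPM in the former and 3.50, 3.51 and 2.92 CPM in the latter. The count became 53 without wild-type replicate 7 and 3337 without the library labelled MN1_WT replicate 3, and 40 with that library alone kept for its group, assumed to vary like the others, a setting chosen after seeing the data. Genes that differed included Nos2, with a log2 fold change of 6.01 without MN1 and -0.52 with MN1, and Ggt1 with 3.58 and -2.83. Rag2 gave -5.59 and 0.87, and Cd79b -3.32 and -0.75.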

How the data were processed

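Poly(A) RNA of mouse bone marrow was sequenced with a stranded mRNA kit, per the labels' protocols. The submitters' processing notes name RSEM 1.2.28, Bowtie2 2.3.4.3 and genome build mm10. The annotation and strand setting are not given in the sources used here. The authors deposited expected counts and TPM per gene and library, per the file headers. The deposited TPM values were averaged per group to compare levels between genes per length. Another 18 columns of per-sample values, FPKM and the TPM of the MN1 libraries, were not used here.

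Expected counts were rounded to whole numbers (5.20 to 6.40% of values were not whole). Genes were filtered with filterByExpr, scaled by TMM factors and tested with edgeR 4.0.16 (R 4.3.3, robust quasi-likelihood test, Benjamini-Hochberg adjusted p of 0.05) on the 6 libraries, and the standard error was taken from the fold change and the F statistic. The interaction was fitted on all 12 libraries. DESeq2 1.42.0 and limma 3.58.1 were alternatives, and the tests were checked on simulated data. Promoters are RefSeq windows of GRCm38.p6 from 250 bases before to 50 after the start.

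The comparison, its lists and the genes named were chosen with earlier results of these data known. Named genes are Hopx, Mn1, Cxcl12 and Cxcr4, the 30 genes per direction with the largest log2 fold change (mean log2 CPM of at least 1, no overlap of groups), the 15 most abundant per direction changed at least 2-fold, up to 6 members per list with the smallest adjusted p, its 3 most abundant members and members that did not pass, genes within 5 Mb of Hopx and genes at 0 in 1 group. Some of these, including most genes within 5 Mb of Hopx, are left out of the text. The following were named after their values were seen: Anxa8, Axin2, Cd22, Cd38, Cd4, Cxcr5, Elane, Eno1, Foxo1, Gm2115, Gp6, H2-Eb1, Hk3, Igtp, Irgm1, Mzb1, Nlrc5, Pdia3, Pfkm, Pgam1, Ppbp, Psmb8, Pygl, S1pr4, Scd1, Siglech, Stat3, Tap1, Tcf4, Tgtp2, Tmem132e and Uchl1.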

Additional observations from a re-analysis of the deposited data

Results flagged for a closer look

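The knockout effect on 463 genes differed between the libraries without MN1 and those labelled with MN1 overexpression, by the interaction test across 12 libraries (edgeR, adjusted p of 0.05). The values below are the log2 fold change without MN1 minus that with MN1, and the groups of 3 libraries are too small for a test of outlying samples. The difference was positive for Lipg (7.31), Nos2 (6.56), Ggt1 (6.43), Prok2 (5.85), Cxcr1 (4.79), Asprv1 (4.64), Ifitm1 (4.29), Steap4 (4.03) and Ly6g (3.82). It was also positive for Fcnb (3.19), Vcan (3.18), Ifitm6 (2.97), Lrg1 (2.89), Socs3 (2.81), Wwtr1 (2.81) and Slc2a3 (2.63). Smaller positive differences were found for Tgm1 (1.89), Vcl (1.63), Slc2a1 (1.41), Csf2rb (1.33), Top2a (1.28), Hmgcs1 (1.49), Msmo1 (1.86) and Stat3 (1.03).

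The difference was negative for Rag2 (-6.46), Stfa3 (-6.37), Hopx (-6.12), BC100530 (-5.85), Gfra1 (-5.42), Stfa2 (-5.16) and Olfm4 (-4.50). It was also negative for Myl4 (-3.37), Gp5 (-3.26), H2-Oa (-3.15), Il1a (-2.95), Gp9 (-2.92), Slamf1 (-2.92), Cd79b (-2.56), Xaf1 (-2.11), Bst2 (-2.06) and Mrc1 (-2.04). Smaller negative differences were found for H2-DMb1 (-1.67), H2-DMa (-1.49), Rps7 (-1.26), Rpl35 (-1.20), H2-Q4 (-1.18) and H2-T22 (-1.02). Mn1 was raised in 1 of the 3 libraries labelled MN1_WT, and its part in these differences was not tested. Stated age also differed between the libraries labelled with and without MN1. The part of age could not be tested, because it changed together with the MN1 label.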

How the results depend on the processing

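With library totals alone 1046 genes rose and 3381 fell. With the spread set by all 12 libraries 818 genes were called (236 rose, 582 fell), and 7 lists in place of 29 had at least 50% of their members called in 1 direction. Leaving out 1 library gave 2402 to 4599 genes called, 1107 to 2360 that rose, 1295 to 2239 that fell and 18 to 24 such lists. The interaction gave 1671 genes with DESeq2 and 53 to 3337 without 1 library, of which 67 came without wild-type replicate 6, 132 without wild-type replicate 1, 84, 63 and 257 without knockout replicates 3, 9 and 10, 81 and 97 without the libraries labelled MN1_WT replicates 2 and 4, and 296, 218 and 857 without those labelled MN1_KO replicates 5, 7 and 8. With the group labelled MN1_WT reduced to replicate 3, an alternative chosen after seeing the data, 40 genes differed, with the lone library assumed to vary like the others. Of 50 list counts of at least 5, 43 moved by more than 1.5 times with the spread set by all 12 libraries, 13 with library totals alone, 4 with no filter beyond a count in 1 library, 3 with DESeq2, 1 with limma-trend and 6 to 17 without 1 library. The cause was not tested. Of the 319 genes named in the text, none with a call changed direction in any of these settings, and 4206 values stayed on the same side of the threshold, 207 no longer passed and 46 newly passed. These values count each gene once per setting, whether called or not. Of the 222 named genes with a call, 30 lost it in at least 1 of the fits without 1 library. With the spread set by all 12 libraries, 801 of all 4008 calls were kept in the same direction. No paired analysis was possible because the wild-type and knockout libraries compared share no replicate number. Libraries of 16544407 to 28409046 counts limit genes near 0: a count of 0 allows up to 3.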
